A study of Mus musculus with 20 samples.

Results

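The miR-302/miR-367 cluster was followed through its 10 mature arms, a 5p and a 3p arm from each of the 5 hairpins mir-302a, mir-302b, mir-302c, mir-302d and mir-367. The arms were taken by name from 1063 miRNAs counted in both cell lines, and all 10 passed the filter on low counts. The hairpins of a miRNA cluster are cut from 1 primary transcript by Drosha and then by Dicer, which leaves a duplex of a 5p and a 3p strand. Argonaute keeps mostly the guide strand, and the passenger strand is mostly degraded. The seed, bases 2 to 8 from the 5′ end, pairs with target mRNAs. In mouse the miR-302/miR-367 cluster is known from the epiblast and from primed pluripotent cells, and the miR-290 cluster, which carries the same guide seed, from naive cells. Guides with this seed are known to repress inhibitors of the G1 to S transition.

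Small RNAs were sequenced from a female (PGK) and a male (E14) mouse embryonic stem cell (ESC) line during conversion to epiblast stem cells (EpiSCs). Cells at days 4, 10, 19 to 23 and 27 to 30 had been moved to N2B27 medium with Activin A and Fgf2 on fibronectin, and the day 0 cells were ESCs in 2i medium. In each line 2 differentiation experiments (diff2 and diff3 in the labels, here replicates 2 and 3) gave 2 libraries a stage, 20 libraries in 10 groups. The window of days 19 to 23 held days 23 and 21 in PGK and days 21 and 19 in E14, and the last window day 29 in both PGK libraries and days 27 and 30 in E14. Each sex was 1 line, so sex and line cannot be told apart, and within a line all changes from day 0 rest on the same pair of libraries. The p-values rest on the spread between both experiments, estimated over the groups of both lines and shared across miRNAs. No other spread enters them. For replicate 3 the day 0 samples of PGK and E14 are labelled ESCs-EpiSCs as to cell type, although title and day say day 0. They were kept at day 0, and the changes in each line are also given without its own such library.

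The 5 hairpins lie within 580 bases on the plus strand of mouse chromosome 3 (GRCm38, GENCODE M21), in an intron of Larp7, whose gene runs on the minus strand and whose 4 annotated transcripts have 0 exons there. In the direction of transcription mir-302b came first (chr3:127545228-127545301), followed by mir-302c (chr3:127545363-127545430), mir-302a (chr3:127545496-127545564), mir-302d (chr3:127545624-127545689) and mir-367 (chr3:127545733-127545807). The hairpins were 66 to 75 bases long and 43 to 65 bases apart. Mature sequences were matched by name in RefSeq (GRCm38.p6) for 9 of the 10 arms. The 3p arms are shown first, since their seeds (capitals) set which other miRNAs they can be summed with.
mmu-miR-302b-3p: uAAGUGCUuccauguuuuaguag
mmu-miR-302d-3p: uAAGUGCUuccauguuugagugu
mmu-miR-302c-3p: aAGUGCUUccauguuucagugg
mmu-miR-367-3p: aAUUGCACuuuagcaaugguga
mmu-miR-302b-3p and mmu-miR-302d-3p shared their first 17 bases and differed at 3 of 23. The annotated mmu-miR-302c-3p starts 1 base further in, so its seed is another one, although it differed from either at 2 of 22 aligned bases. By its name mmu-miR-302a-3p was placed with the seed of mmu-miR-302b-3p. The 5p arms fell into 3 seeds, of which 1 was common to mmu-miR-302b-5p, mmu-miR-302c-5p and mmu-miR-302d-5p.
mmu-miR-302b-5p: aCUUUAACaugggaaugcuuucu
mmu-miR-302c-5p: gCUUUAACaugggguuaccugc
mmu-miR-302d-5p: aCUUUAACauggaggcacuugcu
mmu-miR-302a-5p: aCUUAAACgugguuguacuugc
mmu-miR-367-5p: aCUGUUGCuaacaugcaacuc
How reads that match several of these arms were counted is not given in the sources used here, so the split among the closely similar miR-302 3p arms is uncertain, while their sum depends on it less. In the hairpins below the capitals mark the 5p and the 3p arm of mir-302c, the hairpin with the most even arms, and of mir-302d, the hairpin with the most counts.
mir-302c: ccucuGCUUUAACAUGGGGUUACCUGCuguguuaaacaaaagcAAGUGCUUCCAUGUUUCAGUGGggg
mir-302d: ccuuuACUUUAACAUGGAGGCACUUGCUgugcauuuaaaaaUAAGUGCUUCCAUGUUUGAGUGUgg

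**Figure D1:**
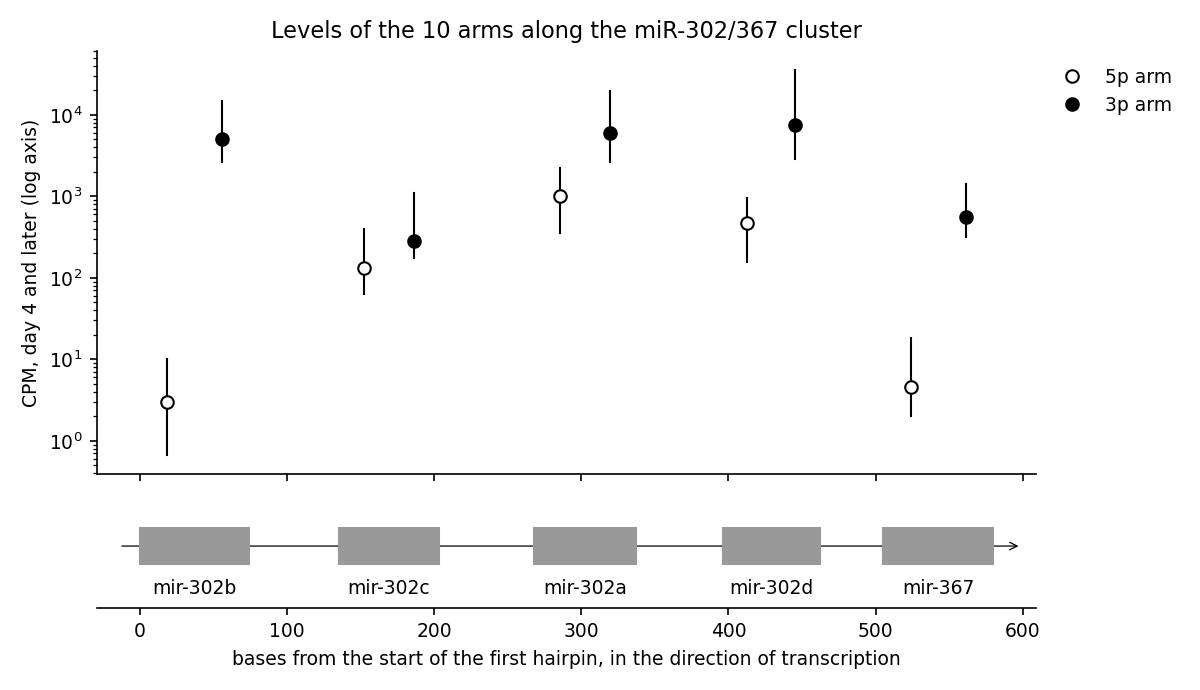
Levels of the 5p and 3p arms (CPM, log axis) against distance along the cluster in bases. Arms are drawn left and right of the middle of each hairpin, points are medians and bars the range over the 16 libraries after day 0. The 3p arm stands above the 5p arm at each of the 5 hairpins, and mir-302c shows the smallest gap.

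Libraries held 7.11 to 18 M miRNA counts (M, mega). Levels are given as CPM, the count per M of the library, that is the count over the library total scaled by the TMM factor of the library. A count of 0 allows up to 3 counts, or 0.166 to 0.422 CPM on plain totals.

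All 10 arms were scarce in the ESCs of day 0 and higher from day 4 on. mmu-miR-302b-5p and mmu-miR-367-5p stayed rare after day 0 too, at no more than 10.2 and 18.5 CPM. Summed over the arms, PGK cells had 168.3 and 194.3 CPM at day 0, 21170 and 22986 at day 4, 30378 and 23339 at day 10, then 14708 and 15036 in the window of days 19 to 23 and 18415 and 11875 in the last one. E14 cells had 272.5 and 584.9 CPM at day 0, 22298 and 9297 at day 4, 74026 and 42035 at day 10, then 33683 and 20674 in the window of days 19 to 23 and 26362 and 17581 in the last one. As a ratio of means the step from day 0 to day 4 was the largest in both lines, while in CPM the step from day 4 to day 10 was larger in E14 cells. Day 10 held the highest library of each line. As shares of a library's plain total, the arms made up 0.942% to 5.77% of counts after day 0 and 0.0141% to 0.0520% at day 0. Ordered by group mean, the E14 libraries of day 10 stood above all others, and the groups below them overlapped their neighbours except after PGK day 10, after PGK days 19 to 23 and between both day 0 groups. In RNA from a whole culture, a change in the share of cells that make the cluster and in its level per cell cannot be told apart.

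**Figure D2:**
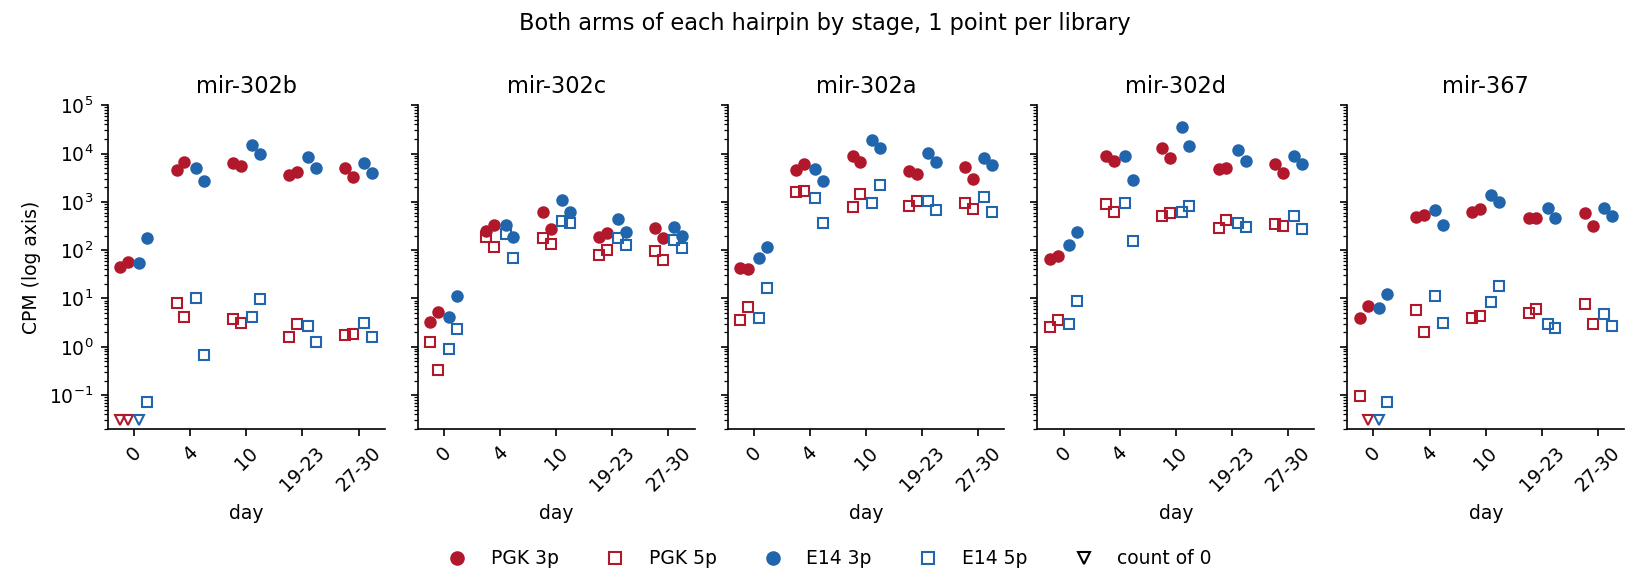
CPM of each arm (log axis) by stage, with PGK and E14 libraries as points. For each of the 10 arms every library after day 0 lies above every library of day 0. How many of all miRNAs tested separate in this way was not counted.

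mmu-miR-302d-3p, the most abundant arm, had 65.5 and 74.4 CPM at day 0, 8720.5 and 6998 at day 4 and 6014 and 3996 at days 27 to 30 in PGK cells. In E14 cells it had 130.0 and 242.0 CPM at day 0, 9079 and 2873 at day 4, 35508.5 and 14235 at day 10 and 9029 and 6076 at days 27 to 30. Among the 1063 miRNAs it stood at rank 24 by mean level over the 16 later libraries and at rank 249 at day 0. mmu-miR-302a-3p had 4504 and 6131 CPM at day 4 against 42.8 and 40.8 CPM at day 0 in PGK cells, and 4867 and 2644 CPM against 69.2 and 114.1 CPM in E14 cells. mmu-miR-302b-3p had 4530.4 and 6594 CPM at day 4 against 45.3 and 56.5 CPM at day 0 in PGK cells, and 4994 and 2661 CPM against 54.6 and 177.2 CPM in E14 cells. These 3 arms carried most of the cluster, and in E14 cells the day 4 library of replicate 3 was the lower one for each of them. mmu-miR-302c-3p and mmu-miR-367-3p were rarer guides. mmu-miR-302c-3p had 253 and 339 CPM at day 4 against 3.29 and 5.22 CPM at day 0 in PGK cells, and 325 and 191 CPM against 4.20 and 11.2 CPM in E14 cells. mmu-miR-367-3p, which carries a seed of the miR-92 family, had 475 and 529 CPM at day 4 against 3.87 and 6.85 CPM at day 0 in PGK cells, and 666 and 339 CPM against 6.49 and 12.3 CPM in E14 cells.

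The passenger arms rose with their guides. mmu-miR-302a-5p, the most abundant of them, had 1585 and 1663 CPM at day 4 against 3.58 and 6.63 CPM at day 0 in PGK cells, and 1183 and 359.8 CPM against 4.02 and 16.7 CPM in E14 cells. mmu-miR-302d-5p had 900.5 and 612 CPM against 2.61 and 3.59 CPM in PGK cells, and 946 and 158 CPM against 3.01 and 8.94 CPM in E14 cells. mmu-miR-302c-5p had 188 and 115 CPM against 1.26 and 0.326 CPM in PGK cells, and 216 and 68.6 CPM against 0.914 and 2.38 CPM in E14 cells. For these 3 arms every day 4 library lay far above both day 0 libraries of its line. The same was not counted over all miRNAs tested. mmu-miR-302b-5p and mmu-miR-367-5p stayed below 20 CPM in every library. mmu-miR-302b-5p had 108 counts over both PGK libraries of day 4 and 0 over those of day 0, at least 40.1-fold higher (against 3 counts over the group), and at least 22.4-, 15.4- and 11.6-fold higher at the following stages. In E14 cells its ratio of day 4 to day 0 was 142.5 (95% counting interval 25.04 to 5678), from 110 counts against 1 count. mmu-miR-367-5p had 1 count over both day 0 libraries of each line, and its ratios of day 4 to day 0 were 76.9 (13.4 to 3082) in PGK and 187.8 (33.2 to 7468) in E14 cells. The intervals cover counting error only.

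edgeR (quasi-likelihood test, Benjamini-Hochberg adjustment over the 813 miRNAs tested, 0.05) called all 10 arms higher than at day 0 at each of the 4 later stages in both lines. With 0 to 1 count per day 0 library, mmu-miR-302b-5p and mmu-miR-367-5p passed the filter on low counts only through later libraries. The calls of these arms are therefore not independent of the filter and add no support. Of all miRNAs tested, 24.5%, 21.3%, 21.2% and 24.1% were called higher at days 4, 10, 19 to 23 and 27 to 30 in PGK cells, and 25.1%, 16.7%, 15.9% and 19.6% in E14 cells. The median log2 change of the 10 arms was 6.90, 7.33, 6.52 and 6.52 at the 4 stages in PGK cells (6.79, 7.08, 6.44 and 6.41 with mmu-miR-302b-5p at its bound) and 5.98, 7.06, 5.82 and 6.05 in E14 cells. The medians over all miRNAs tested lay between -0.04 and 0.09. By edgeR, mmu-miR-302a-3p was higher by 6.99 ± 0.51 (log2, SE, adjusted p = 5.31e-07) at day 4 in PGK and by 5.36 ± 0.47 (adjusted p = 3.65e-06) in E14 cells. The largest adjusted p of any arm in these 8 contrasts was 0.00984 (edgeR). The day 0 libraries of replicate 3 were left out 1 at a time, each for the contrasts of its own line. All fitted changes of the arms then stayed above 0, with log2 changes of 4.76 to 8.71 at day 4 in PGK and 5.24 to 9.20 in E14 cells. Without the E14 day 0 library of replicate 2, mmu-miR-302b-5p was not called at days 19 to 23 (log2 4.58, adjusted p = 0.0631), nor was it without E14 days 19 to 23 replicate 2 (log2 4.58, adjusted p = 0.0524).

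miRNA markers of other cell types were followed beside the cluster. Neural miRNAs (mmu-miR-124-3p and mmu-miR-9-5p) summed to 170.5 to 1735 CPM after day 0 and 163 to 311 CPM at day 0, and most of the sum was mmu-miR-9-5p, higher at day 4 by 2.06 (log2) in PGK (edgeR adjusted p = 0.00822) and by 2.95 in E14 cells (adjusted p = 0.00104). The 3 muscle miRNAs summed to 6.19 to 72.0 CPM after day 0 and 0.548 to 7.29 CPM at day 0. The 6 blood miRNAs summed to 22.8 to 601 CPM against 521 to 1546 CPM. The 5 mesenchyme miRNAs summed to 352 to 3129 CPM against 3254 to 8817 CPM, a sum carried by mmu-miR-143-3p, and their members did not move together. mmu-miR-199a-3p averaged 543 CPM at days 27 to 30 and 34.2 CPM at day 0 in PGK cells, and mmu-miR-199a-5p 87.7 CPM at days 27 to 30 and 3.83 CPM at day 0. mmu-miR-214-3p was at 0 in both lines at days 0 and 4 and averaged 25.7 CPM in PGK and 24.9 CPM in E14 cells at days 27 to 30. The 3 miRNAs of endoderm and gut summed to 525 to 11910 CPM after day 0 and 1169 to 3635 CPM at day 0, and these too went opposite ways. mmu-miR-375-3p rose with the cluster, by 6.75 ± 1.05 (log2) at day 4 in PGK (edgeR adjusted p = 0.000174) and by 5.13 ± 0.98 in E14 cells (adjusted p = 0.000989), and averaged 9489 CPM at days 19 to 23 against 9.06 CPM at day 0 in PGK and 7807.5 against 10.9 CPM in E14 cells. mmu-miR-192-5p averaged 509 CPM at days 19 to 23 against 1502 CPM at day 0 in PGK and 567 against 2435 CPM in E14 cells, and mmu-miR-194-5p 46.6 CPM at days 19 to 23 against 158 CPM at day 0 in PGK and 51.4 against 230.4 CPM in E14 cells. The liver miRNA mmu-miR-122-5p stayed at or below 0.0914 CPM. No listed marker was at 0 in every library. The part of other cells in the changes was not tested. The 14 arms of the miR-290 cluster, known from naive cells, summed to 46600 to 199000 CPM after day 0 and 245300 to 341300 CPM at day 0.

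After day 4 the summed cluster was highest at day 10 in both lines by the means, and few of the steps passed the test. In E14 cells the fitted change from day 4 to day 10 was above 0 for all 10 arms. Within replicate 2, however, mmu-miR-302a-5p (944 against 1183 CPM), mmu-miR-302b-5p (4.13 against 10.2 CPM), mmu-miR-302d-5p (614 against 946 CPM) and mmu-miR-367-5p (8.32 against 11.5 CPM) were lower at day 10 than at day 4. Without E14 day 4 replicate 3 the changes of mmu-miR-302b-5p and mmu-miR-302d-5p were -0.32 and -0.14. mmu-miR-302a-3p had 19404 and 12955 CPM at day 10 against 4867 and 2644 CPM at day 4, a log2 change of 2.11 ± 0.41 (edgeR adjusted p = 0.0156). mmu-miR-302d-3p changed by 2.06 ± 0.55 (adjusted p = 0.0345), and mmu-miR-302b-3p by 1.68 ± 0.50 (adjusted p = 0.0505). edgeR thus called 2 of 10 arms, beside 8.12% of all miRNAs tested. At an unadjusted p under 0.05 by edgeR 6 arms were higher, beside 77 higher and 117 lower of the 813 miRNAs tested. DESeq2 called 6 arms higher, beside 73 higher and 37 lower of these miRNAs. The call rested on few libraries: it fell to 0 arms without E14 day 10 replicate 2 (mmu-miR-302a-3p 2.08, adjusted p = 0.082) and to 1 arm without E14 day 4 replicate 3. It came to 4 arms without PGK day 0 replicate 2, either PGK day 10 library or E14 day 10 replicate 3, and to 5 without either E14 day 0 library. With replicate as a block edgeR called 3 arms. TMM scaling set the median of all miRNAs at -0.26 in this contrast and RLE scaling at 0.00459, and the median of the 10 arms was 1.32 with TMM and 1.62 with RLE.

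In PGK cells the step from day 4 to day 10 called no arm by edgeR or DESeq2, with 0 at an unadjusted p under 0.05 by edgeR and 6.52% of all miRNAs called. Of the 813 miRNAs tested, 50 were higher and 132 lower at that unadjusted p. The fitted change was above 0 for 7 arms and below 0 for mmu-miR-302a-5p (-0.53), mmu-miR-302b-5p (-0.85) and mmu-miR-302d-5p (-0.48). From day 10 to days 19 to 23 the arms were lower by the means in E14 cells, by -0.85 to -2.30 on the log2 scale. No arm passed edgeR or DESeq2, and edgeR called 0.246% of all miRNAs. At an unadjusted p under 0.05 by edgeR 5 arms were lower, beside 41 higher and 55 lower of the 813 miRNAs tested. In PGK cells the fitted change at that step was below 0 for 9 arms and above 0 for mmu-miR-367-5p (0.39). There no arm passed either tool, and edgeR called 0.369% of all miRNAs. At an unadjusted p under 0.05 by edgeR 1 arm was lower, beside 27 higher and 26 lower of the 813 miRNAs tested. From days 19 to 23 to days 27 to 30 no arm passed either tool in either line, 0 had an unadjusted p under 0.05 by edgeR, and 0% of all miRNAs were called in both. Of the 813 miRNAs tested, 11 were higher and 11 lower at that unadjusted p in PGK cells, and 27 and 10 in E14 cells. The log2 changes of the arms at that last step lay between -0.38 and 0.18 in PGK cells and between -0.48 and 0.47 in E14 cells.

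No arm was called between PGK and E14 cells at any stage by edgeR or DESeq2. Of all miRNAs edgeR called 8.73% between the lines at day 0, 5.04% at day 4 and 0% at each of the 3 following stages. Over the 5 stages in order, 3, 0, 5, 1 and 0 arms had an unadjusted p under 0.05 with edgeR, all of them lower in PGK cells. Of the 813 miRNAs tested, 58, 41, 28, 9 and 16 were lower and 97, 127, 69, 51 and 47 higher at that unadjusted p. At day 10 all 10 arms were lower in PGK than in E14 cells by their means, by -0.39 to -1.68 on the log2 scale. At day 0 mmu-miR-302a-3p differed by -1.13 ± 0.40 (edgeR adjusted p = 0.101), mmu-miR-302d-3p by -1.41 ± 0.54 (adjusted p = 0.139) and mmu-miR-302b-3p by -1.19 ± 0.50 (adjusted p = 0.189). The E14 library of replicate 3 was above that of replicate 2 at day 0 for all 10 arms, and the values turned on these libraries. Without E14 day 0 replicate 2 edgeR called 3 arms (mmu-miR-302a-3p -1.63, mmu-miR-302b-3p -1.99 and mmu-miR-302d-3p -1.98), and without E14 day 0 replicate 3 it called 0 (mmu-miR-302b-3p -0.29). It called 2 arms without E14 day 4 replicate 3 or E14 day 10 replicate 3, and 1 without either PGK library of days 27 to 30 or E14 day 4 replicate 2. With the replicate as a block mmu-miR-302a-3p was called at day 0 (-1.17, adjusted p = 0.0489). The change from day 0 to the mean of the later stages differed between the lines for none of the 10 arms (edgeR and DESeq2 0, unadjusted 0, 1.35% of all miRNAs called), with log2 differences of -0.55 to 1.91. Of the 813 miRNAs tested, 70 were higher and 61 lower there at an unadjusted p under 0.05 by edgeR.

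**Figure D3:**
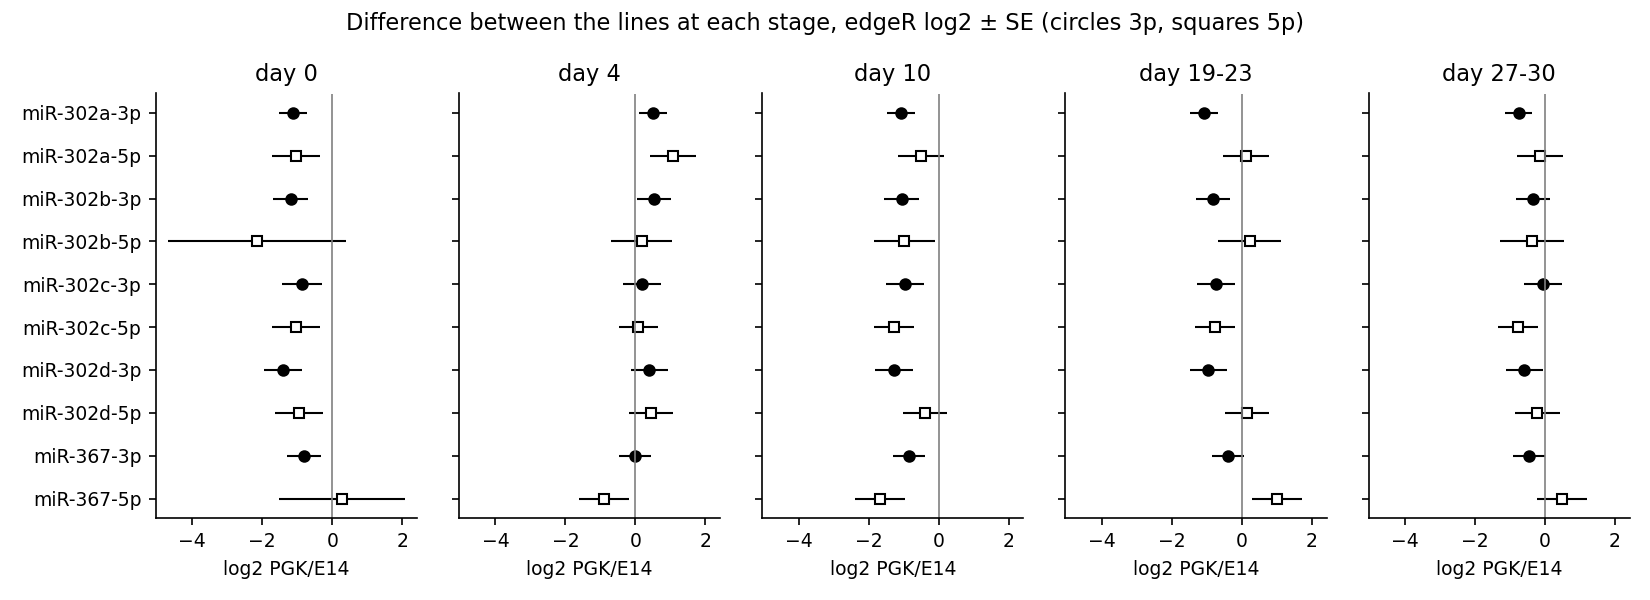
Fitted log2 difference of PGK over E14 cells (edgeR, with SE) for each of the 10 arms by stage. At day 10 all 10 arms lie below 0, at -0.39 to -1.68. No arm was called between the lines at any stage.

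The composition of the cluster is given as shares of its counts, as a description with no test. Over the 16 libraries after day 0, mmu-miR-302d-3p made up a median of 33.8% of the cluster's counts (30.4% to 48.0%), mmu-miR-302a-3p 28.5% (21.3% to 32.9%) and mmu-miR-302b-3p 24.4% (19.8% to 28.7%). In the 4 day 0 libraries the medians were 40.1%, 23.2% and 28.0%. mmu-miR-367-3p held 2.76% after day 0 and 2.34% at day 0, and mmu-miR-302c-3p 1.45% after day 0 and 1.93% at day 0. The order mmu-miR-302d-3p, mmu-miR-302a-3p, mmu-miR-302b-3p, mmu-miR-367-3p, mmu-miR-302c-3p was found in 10 of the 16 later libraries and in 1 of the 4 day 0 libraries, and mmu-miR-302b-3p stood before mmu-miR-302a-3p in 6 later and 3 day 0 libraries. Position in the transcript did not order the levels: mir-302c, the second hairpin, was the lowest 3p arm by its median, between the abundant mir-302b and mir-302a. Among the 5p arms, mmu-miR-302a-5p held 5.21% after day 0 and 2.49% at day 0, mmu-miR-302d-5p 1.93% after day 0 and 1.54% at day 0, and mmu-miR-302c-5p 0.594% after day 0 and 0.371% at day 0. The 5p arms together held 7.88% of the cluster after day 0 (2.65% to 12.7%) and 4.65% at day 0 (2.92% to 5.43%). Their order mmu-miR-302a-5p, mmu-miR-302d-5p, mmu-miR-302c-5p, mmu-miR-367-5p, mmu-miR-302b-5p held in 14 of the 16 later libraries.

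The 3p arm was the major arm of every hairpin in every library, and the margin differed widely between hairpins. After day 0 the 3p arm held a median of 99.9% of the counts of mir-302b, 99.2% of mir-367, 94.5% of mir-302d, 84.9% of mir-302a and 69.7% of mir-302c. As log2 ratios of the 3p to the 5p count (pseudocount 0.5) the means were 10.8 ± 0.89, 6.92 ± 0.72, 4.14 ± 0.69, 2.63 ± 0.75 and 1.15 ± 0.40 in the same order (SD, n = 16 libraries). The range of mir-302c, 57.4% to 77.5%, did not meet that of mir-302d, 90.6% to 98.3%. The mir-302b and mir-302d hairpins give 3p arms that differ at 3 bases, yet 5p arms of 6 to 104 counts in mir-302b and of 1419 to 9612 counts in mir-302d per later library. Of the 289 hairpins with both arms tested, 140 had more 3p than 5p counts after day 0, and the median size of the log2 ratio was 3.67. A more uneven ratio than that of mir-302b was seen in 6 of them, and than that of mir-302c in 236.

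**Figure D4:**
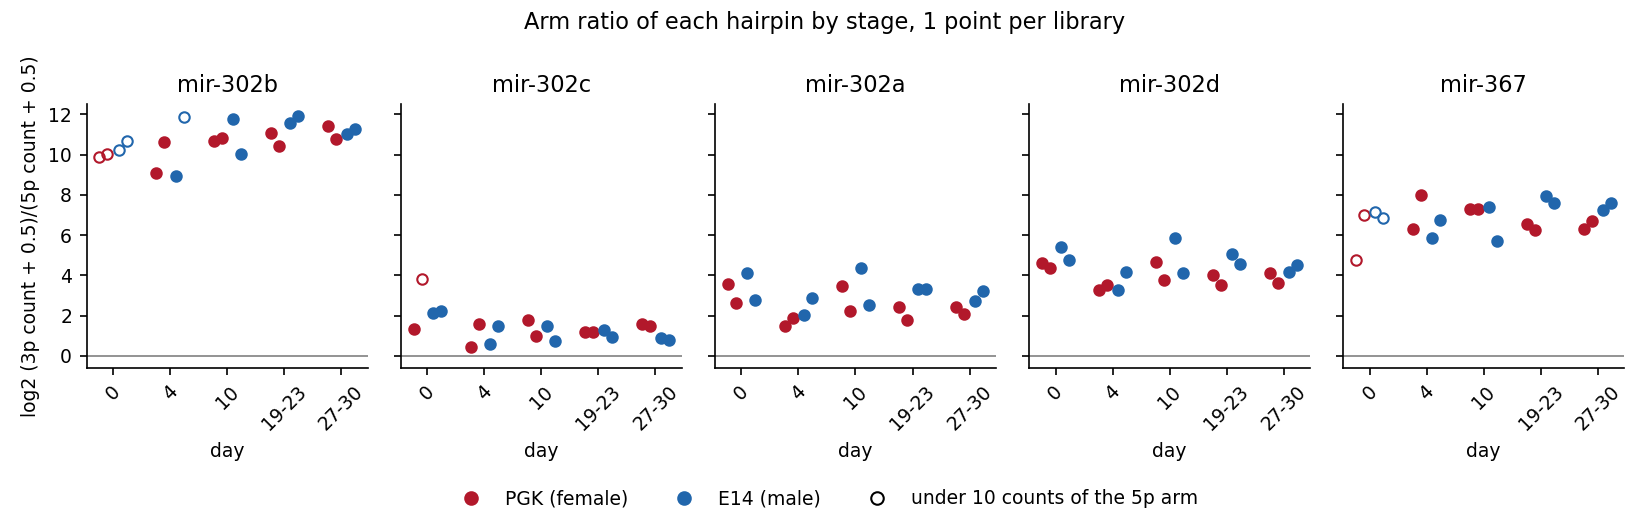
log2 ratio of 3p to 5p counts for each of the 5 hairpins in every library by stage. All points lie above 0, with mir-302b highest (8.92 to 11.9 after day 0) and mir-302c lowest (0.43 to 1.78).

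The arm ratio of no hairpin was called to change, by limma on the log2 ratios of all 289 hairpins. For the later stages over day 0 limma called 0 of the 5 hairpins in each line (1 with an unadjusted p under 0.05 in each), beside 1.04% of all hairpins in PGK and 5.19% in E14 cells. The 3p share of mir-302c had a median of 71.7% after day 0 against 72.3% and 94.1% at day 0 in PGK cells, and 65.3% against 82.1% and 82.4% in E14 cells. In E14 cells all 8 later libraries lay below both day 0 libraries. The log2 ratio of mir-302c changed by -1.29 ± 0.49 in PGK (limma adjusted p = 0.194) and by -1.16 ± 0.49 in E14 cells (adjusted p = 0.165). The day 0 values rest on 3 to 33 counts of mmu-miR-302c-5p. Without PGK day 0 replicate 2 the change in PGK cells was -2.51 (limma adjusted p = 0.013), and without PGK day 0 replicate 3 it was -0.07. Between PGK and E14 cells after day 0 limma called 0 hairpins, with 2 at an unadjusted p under 0.05 and 1.04% of all called. These 2 were mir-302a, with -0.82 ± 0.30 (limma adjusted p = 0.343), and mir-302d, with -0.65 ± 0.25 (adjusted p = 0.368). The change to the later stages differed between the lines for 0 hairpins (0 unadjusted, 0% of all).

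The lowest 3p shares of mir-302a, mir-302c and mir-302d were all found in day 4 libraries of replicate 2. The 3p share of mir-302d was 90.6% and 91.96% in PGK and 90.6% and 94.8% in E14 cells at day 4, and 92.05% to 98.3% afterwards. The 3p share of mir-302a was 74.0% and 78.7% in PGK and 80.4% and 88.0% in E14 cells at day 4, and 77.7% to 95.4% afterwards. The 3p share of mir-302c was 57.4% and 74.7% in PGK and 60.1% and 73.6% in E14 cells at day 4, and 62.7% to 77.5% afterwards, so that both replicate 3 libraries of day 4 lay within the later range. The contrast of after day 4 over day 4 was added to the planned ones and uses the same libraries as these shares. In it limma called 0 hairpins of the cluster, 1 had an unadjusted p under 0.05 (mir-302d, 0.77 ± 0.29, adjusted p = 0.208), and 0.692% of all hairpins were called. Without E14 day 4 replicate 3 mir-302b was called (1.67, limma adjusted p = 0.0358).

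The seeds of the cluster were also carried by miRNAs that were abundant at day 0. The seed of mmu-miR-302b-3p and mmu-miR-302d-3p was shared with 3 arms of the miR-290 cluster, of which mmu-miR-295-3p was the most abundant, and the seed of mmu-miR-367-3p with 5 members of the miR-92 and miR-25 family. The most abundant of these carriers, and others of both families, are shown with the seed in capitals.
mmu-miR-291a-3p: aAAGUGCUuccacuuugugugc
mmu-miR-294-3p: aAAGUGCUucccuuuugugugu
mmu-miR-295-3p: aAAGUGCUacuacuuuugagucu
mmu-miR-92a-3p: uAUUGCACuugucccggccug
mmu-miR-363-3p: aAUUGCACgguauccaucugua
Counts were summed over all 6 carriers of each seed, with mmu-miR-302a-3p placed by name, and scaled with the TMM factors of the miRNA table. The cluster made up a median of 20.7% of its seed sum after day 0 (6.53% to 37.2%) and 0.125% at day 0 (0.0778% to 0.254%). In E14 cells the cluster held 37.2% and 27.9% of the sum at day 10 and 0.158% and 0.254% at day 0. In PGK cells it held 26.5% and 21.1% at day 10 and 0.0924% and 0.0778% at day 0. For the seed of mmu-miR-367-3p the cluster's part stayed at or below 1.32% in every library, with a median of 0.547% after day 0 and 0.00924% at day 0.

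**Figure D5:**
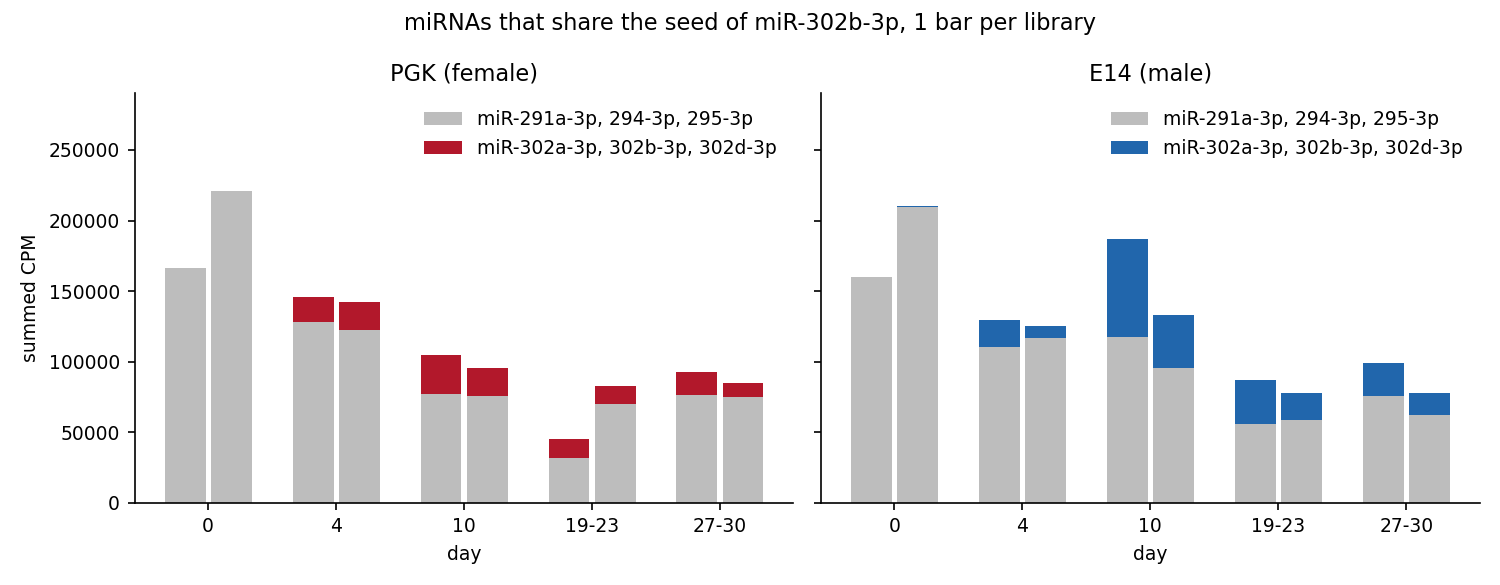
Summed CPM of all carriers of the mmu-miR-302b-3p seed by library and stage in PGK and E14 cells, split into the cluster's arms and the other carriers. The cluster's part reaches 37.2% of the sum.

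With the cluster's gain included, the total of the mmu-miR-302b-3p seed was lower at the late stages than at day 0. The sum was 44967 and 82675 CPM at days 19 to 23 against 166245 and 220814 CPM at day 0 in PGK cells, and 86703 and 77491 CPM against 160225 and 210287 CPM in E14 cells. By edgeR on 693 seed families its log2 change in PGK cells was -0.43 ± 0.28 at day 4 (adjusted p = 0.244), -0.95 ± 0.28 at day 10 (adjusted p = 0.0159), -1.60 ± 0.29 at days 19 to 23 (adjusted p = 0.000465) and -1.12 ± 0.28 at days 27 to 30 (adjusted p = 0.00544). In E14 cells edgeR gave -0.54 ± 0.28 at day 4 (adjusted p = 0.134), -0.21 ± 0.28 at day 10 (adjusted p = 0.588), -1.17 ± 0.28 at days 19 to 23 (adjusted p = 0.00589) and -1.06 ± 0.28 at days 27 to 30 (adjusted p = 0.00958). The values at day 4 were not firm: E14 day 4 was called with RLE scaling (-0.79), with TMM computed on the sums (-0.88) and without any of 13 of the 20 libraries (-0.80 to -1.05), and PGK day 4 with TMM computed on the sums (-0.88) and without any of 5 libraries (-0.68 to -0.76). The other carriers alone averaged 57225 ± 2004 CPM at days 19 to 23 and 184862 ± 35202 CPM at day 0 in E14 cells (SD, n = 2). Of all seed families edgeR called 37.4%, 37.8%, 38.2% and 41.1% at the 4 stages in PGK and 42.6%, 30.7%, 32.9% and 39.2% in E14 cells. The PGK call at day 10 was lost without PGK day 0 replicate 3 (-0.87, adjusted p = 0.0679) or PGK day 10 replicate 3 (-0.97, adjusted p = 0.0585), and the E14 call at days 27 to 30 without E14 day 27 to 30 replicate 3 (-0.92, adjusted p = 0.0885). With plain totals in place of TMM 4 of these 5 calls were lost (PGK days 10 and 27 to 30 at -0.70 and -0.72, E14 days 19 to 23 and 27 to 30 at -0.48 and -0.41), and PGK days 19 to 23 passed (-1.08).

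The total of the mmu-miR-367-3p seed was higher at day 4, by 1.41 ± 0.35 in PGK (edgeR adjusted p = 0.00547) and by 1.16 ± 0.35 in E14 cells (adjusted p = 0.0139), and was not called at the later stages in either line with TMM (log2 -0.24 to 0.36). With plain totals it was called at PGK days 19 to 23 (0.69) and 27 to 30 (0.77) and at E14 days 27 to 30 (0.79), and E14 days 19 to 23 was 0.48 in place of -0.24, without a call. mmu-miR-367-3p itself was 0.178% to 0.362% of that sum at day 4. The PGK call was lost without PGK day 0 replicate 3 (0.61, adjusted p = 0.185) or PGK day 4 replicate 2 (0.70, adjusted p = 0.173). The E14 call was lost without any of 9 libraries (0.42 to 0.95): PGK day 10 replicate 3, both PGK libraries of days 27 to 30, both E14 libraries of day 0, E14 day 4 replicate 2, E14 day 10 replicate 3 and both E14 libraries of days 19 to 23.

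The families that share these seeds were counted beside the cluster. Of the 14 arms of the miR-290 cluster edgeR called 0, 10, 13 and 11 lower at days 4, 10, 19 to 23 and 27 to 30 in PGK cells and 1, 0, 12 and 11 in E14 cells, beside 14.6%, 18.8%, 19.3% and 19.4% of all miRNAs tested called lower in PGK and 18.3%, 17.0%, 18.5% and 21.2% in E14 cells. None of the 14 was called higher at any of these stages (0 by an unadjusted p and by DESeq2). At the stages with 0 lower calls, 4 arms had an unadjusted p under 0.05 in PGK cells at day 4 and 5 in E14 cells at day 10, and DESeq2 called 4 and 1. Of the 813 miRNAs tested, 170 and 180 were lower at that unadjusted p, and DESeq2 called 166 and 147 lower. The median log2 changes of the 14 arms were -0.61, -1.26, -1.91 and -1.40 in PGK and -0.55, -0.79, -1.73 and -1.41 in E14 cells. mmu-miR-295-3p changed by -1.30 ± 0.30 at days 27 to 30 in PGK (edgeR adjusted p = 0.00270) and by -1.42 ± 0.30 in E14 cells (adjusted p = 0.00225). In the miR-17 family, whose seed overlaps that of the miR-302 guides with a shift, edgeR called mmu-miR-93-5p lower at days 27 to 30 by -1.68 ± 0.35 in PGK and -2.48 ± 0.36 in E14 cells. Of its 6 members 2 were called higher and 1 lower at that stage in PGK cells, and 0 higher (also 0 unadjusted and by DESeq2) and 1 lower in E14 cells. Of all miRNAs tested, 24.1% were called higher and 19.4% lower at that stage in PGK cells, and 19.6% and 21.2% in E14 cells. Of the 5 members of the miR-92 and miR-25 family, 2 were called higher at day 4 in each line, beside 24.5% of all miRNAs in PGK and 25.1% in E14 cells. At day 4 edgeR called 0 of them lower in PGK (1 by DESeq2) and 1 in E14 cells. At each of the 3 following stages 1 was called higher and 1 lower in PGK cells. In E14 cells 0 were called higher there, and 1, 2 and 2 lower, beside the shares of all miRNAs called lower given above.

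The miRNAs with the pattern most like the cluster's were sought among 415 other miRNAs that reached a mean of 50 CPM in at least 1 group. By Pearson's r of log2 CPM with the summed cluster over the 20 libraries, which share depth and scaling, they were mmu-miR-203-3p (0.927), mmu-miR-34c-5p (0.910), mmu-miR-34b-5p (0.908), mmu-miR-28a-5p (0.907) and mmu-miR-489-3p (0.904), given as a description. mmu-miR-34c-5p averaged 3589 CPM over the 16 later libraries and 280.6 CPM over the 4 of day 0, and mmu-miR-489-3p averaged 37.0 CPM after day 0 and 1.30 CPM at day 0. mmu-miR-203-3p averaged 79.3 CPM after day 0 and 10.6 CPM at day 0. Each of the 5 was thus higher after day 0, by smaller ratios than the summed cluster.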

How the data were processed

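The tables were used as deposited. Raw tables by the authors give, for each miRNA, 1 count in every library; per the labels, RNA was extracted with Trizol and treated with DNase before small RNA libraries were made. CASAVA 1.8.2 and DESeq2 (without a version) are named in the submitters' processing notes, with GRCm38 and mm10 as builds. Aligner and miRNA annotation: not given in the sources used here. Normalized signal values, deposited as counts over size factors, and the authors' deposited log2 values (variance-stabilized) served for checks only.

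Counts of the 1063 miRNAs in both the male (1091) and the female table (1109) were fitted in edgeR 4.0.16 (R 4.3.3), quasi-likelihood, over all 20 libraries (10 residual degrees of freedom) with 1 coefficient per line and stage, TMM scaling (factors 0.551 to 1.43) and filterByExpr, which kept 813 miRNAs with 99.997% of the counts. P-values were adjusted by Benjamini-Hochberg within each contrast at 0.05. Arm ratios used limma 3.58.1. DESeq2 1.42.0 was an alternative, as were other scalings and filters, each line alone, a replicate block and leaving out each library. A group left with 1 library is assumed to vary like the others. Seed sums were scaled with the miRNA-level TMM factors, a choice made after TMM computed on the sums had proved unstable. Seeds came from RefSeq sequences, matched for 853 of 1063 names; unmatched names stayed single.

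The experiment name shared by both lines pairs libraries of the same stage: their deviations from group means correlated at 0.130 to 0.554 in all 5 pairs (median 0.393). Within a line, 20 pairs of different stages correlated at -0.0998 to 0.403 (median 0.0767), a range that overlaps the first. The members and lists were chosen with earlier results of these data known. All 10 members are named, the 5 other miRNAs by likeness in pattern, and relatives by level.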

Additional observations from a re-analysis of the deposited data

Results flagged for a closer look

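Of the changes of single arms between neighbouring stages, mmu-miR-367-5p from day 10 to days 19 to 23 went in opposite directions in the lines. Its log2 change was 0.315 and 0.385 in the PGK experiments, against -1.32 and -2.71 in the E14 experiments, a difference of 2.365 between the line means. The difference was not tested. The arm had 29 to 165 counts in the libraries after day 4, and its guide mmu-miR-367-3p had lower means at days 19 to 23 than at day 10 in both lines.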

How the results depend on the processing

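In all 8 contrasts against day 0, 10 arms were called under each scaling, with no filter, with DESeq2, with each line alone and with the block; with a mean of at least 10 CPM 8 arms were tested and 8 called, and 9 to 10 were called when libraries were left out. The number of arms called at E14 day 10 over day 4 was 2, 4 with RLE scaling, 4 with a mean of at least 10 CPM, 6 with DESeq2, 1 with each line fitted alone and 0 to 5 without single libraries. PGK over E14 at day 0 called 0 arms, 1 with plain totals, 1 with the replicate block and 0 to 3 without single libraries. Of single arms the block also called mmu-miR-302b-3p at E14 day 10 over day 4 (1.69), and it changed no other call. Hairpins with a called arm ratio, 0, came to 0 to 1 without single libraries for PGK later over day 0 and for after day 4 over day 4. No called value changed sign under these alternatives.

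The seed sums depended on scaling. The mmu-miR-302b-3p sum at E14 day 4 passed with RLE scaling (-0.79) and with TMM computed on the sums (-0.88), and at PGK day 4 with TMM computed on the sums (-0.88). With plain totals its calls were lost at PGK day 10 (-0.70), PGK days 27 to 30 (-0.72), E14 days 19 to 23 (-0.48) and E14 days 27 to 30 (-0.41). The mmu-miR-367-3p sum passed with plain totals at PGK days 19 to 23 (0.69), PGK days 27 to 30 (0.77) and E14 days 27 to 30 (0.79), was 0.48 at E14 days 19 to 23, and with TMM on the sums was 0.83 at E14 day 4 (no longer called), -0.057 at PGK days 19 to 23 and -0.026 at E14 day 10. The cause was not tested.

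Without single libraries the mmu-miR-302b-3p sum ranged over -0.79 to -0.41, -1.09 to -0.87, -2.10 to -1.26 and -1.30 to -1.03 at the 4 stages in PGK, and -1.05 to -0.55, -0.50 to -0.06, -1.38 to -1.08 and -1.29 to -0.92 in E14 cells. At PGK day 4 it was called without PGK day 10 replicate 3, PGK days 19 to 23 replicate 2 or replicate 3 of E14 at day 0, day 4 or day 10 (-0.68 to -0.76). At E14 day 4 it was called without any of 13 libraries (-0.80 to -1.05), all but both E14 libraries of day 4 and of days 27 to 30, E14 day 0 replicate 3, and replicate 3 of PGK at day 4 and at days 19 to 23. The mmu-miR-367-3p sum ranged over 0.61 to 1.78, -0.15 to 0.91, -0.33 to 0.70 and -0.14 to 0.87 in PGK, and 0.42 to 1.20, -0.12 to 0.081, -0.55 to -0.11 and -0.10 to 0.22 in E14 cells. Depth limits mmu-miR-302b-5p and mmu-miR-367-5p, with 0 to 1 count per day 0 library.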
